A study of Mus musculus with 7 samples.

Results

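The 33 genes described here belong to the hypoxia response and to glycolysis, and were followed as TPM, a transcript abundance normalised to gene length and library total, in mouse tumors with an exon 19 deletion of Egfr. They were chosen by name from the deposited expression file, and all 33 were found among its 21892 gene symbols. The genes fall into 3 HIF alpha transcription factors, 17 genes known to be induced in hypoxia, and 13 general enzymes of glycolysis, several of which are also HIF targets. Of the 33, 32 had a mean of at least 1 TPM over the 7 libraries, as did 13997 genes in all, and these were compared. Car12 lay below that level.

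The tumors had been passaged under the skin of C57BL/6 mice, and the labels call the tissue lung tumor. Gefitinib, an inhibitor of the EGFR kinase, was given for 3 days or for 14 days in 2 groups, and a vehicle group, whose treatment field records none, was taken at day 3. The other 4 groups were taken at day 21, all after 14 days of gefitinib followed by 7 days of the VEGFR2 antibody DC101, of the PD-1 antibody 4H2, of both antibodies, or of vehicle (again recorded as none). Each group is 1 library, so every difference below lies between 2 libraries, has no replicate check and carries no test. The sources used here give neither sequencing depth, nor the age of the mice, nor how many of them each library holds.

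HIF transcription factors pair an oxygen-labile alpha subunit with the stable subunit ARNT. When oxygen is present, prolyl hydroxylases of the EGLN family mark the alpha subunit for destruction, so the factor is controlled as a protein more than as RNA. When oxygen falls, the pair binds the core sequence ACGTG or GCGTG and raises genes for glucose uptake, glycolysis, lactate export, collagen hydroxylation and mitochondrial turnover. Tumor epithelium, activated macrophages and fast skeletal muscle all run glycolysis at a high rate, but in part through different isozymes.

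The proximal promoters of 5 genes are shown because their transcripts carry the results that follow: Pgk1, Ldha and Bnip3 were lower under gefitinib, Pfkfb4 was higher, and Aldoa was highest in the libraries with most muscle RNA. Each covers 250 bases before and 50 bases after a RefSeq start in GRCm38.p6, written 5′ to 3′ on the strand of the gene. Capitals mark every ACGTG and every copy of GCGTG on either strand. A match on the opposite strand reads CACGT for the first motif, while for the second it reads CACGC. The palindrome CACGTG holds the first motif on both strands and is also the E-box that other factors bind. The regions are chrX:106186850-106187149 on the plus strand for Pgk1, chr7:46845554-46845853 on the plus strand for Ldha, chr7:138909457-138909756 on the minus strand for Bnip3, chr9:108991652-108991951 on the plus strand for Pfkfb4, and chr7:126799205-126799504 on the minus strand for the second of 3 listed Aldoa starts.
Pgk1: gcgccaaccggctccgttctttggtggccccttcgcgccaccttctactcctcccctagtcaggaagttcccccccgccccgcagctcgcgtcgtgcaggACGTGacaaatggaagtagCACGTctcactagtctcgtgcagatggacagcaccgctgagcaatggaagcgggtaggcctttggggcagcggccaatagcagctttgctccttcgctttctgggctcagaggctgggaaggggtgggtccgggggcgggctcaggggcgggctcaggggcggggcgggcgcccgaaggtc
Ldha: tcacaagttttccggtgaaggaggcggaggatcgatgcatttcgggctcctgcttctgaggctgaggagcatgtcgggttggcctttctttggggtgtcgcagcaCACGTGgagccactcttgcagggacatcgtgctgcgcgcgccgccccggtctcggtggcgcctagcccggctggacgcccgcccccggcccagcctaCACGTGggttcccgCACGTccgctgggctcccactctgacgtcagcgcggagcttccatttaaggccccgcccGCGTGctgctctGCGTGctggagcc
Bnip3: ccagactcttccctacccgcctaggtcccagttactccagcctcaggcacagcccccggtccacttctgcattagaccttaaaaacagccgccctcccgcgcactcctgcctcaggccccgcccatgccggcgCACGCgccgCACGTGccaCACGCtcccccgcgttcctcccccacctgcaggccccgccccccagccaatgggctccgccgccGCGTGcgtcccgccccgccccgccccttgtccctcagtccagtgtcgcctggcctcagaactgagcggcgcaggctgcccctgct
Pfkfb4: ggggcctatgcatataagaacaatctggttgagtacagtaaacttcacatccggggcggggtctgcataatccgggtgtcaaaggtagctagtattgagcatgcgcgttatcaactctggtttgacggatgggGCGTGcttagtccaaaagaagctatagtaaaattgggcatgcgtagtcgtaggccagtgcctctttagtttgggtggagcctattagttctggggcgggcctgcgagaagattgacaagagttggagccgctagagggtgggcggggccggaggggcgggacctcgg
Aldoa: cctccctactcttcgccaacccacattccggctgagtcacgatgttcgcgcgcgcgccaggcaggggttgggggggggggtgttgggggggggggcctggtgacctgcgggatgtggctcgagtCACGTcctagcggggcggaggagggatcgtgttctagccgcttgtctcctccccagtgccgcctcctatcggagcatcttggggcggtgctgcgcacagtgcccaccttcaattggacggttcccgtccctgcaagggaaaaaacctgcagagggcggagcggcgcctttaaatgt

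The pair of ACGTG matches in Pgk1 begins at -150 and -131 from the start. The Ldha window holds 5 ACGTG matches, 4 of them in a pair of CACGTG palindromes, and 2 of GCGTG. Bnip3 has 2 ACGTG matches, in 1 palindrome that lies between copies of CACGC, and a further GCGTG at -35. Pfkfb4 has a single GCGTG at -117 and this Aldoa start a single CACGT. The first listed Aldoa start, not printed here, held neither motif, and TPM per gene does not show which start was used. Promoter sequence was found for 30 of the 33 genes, with none listed for Slc2a3, Epas1 and Ndrg1. ACGTG stood in a promoter of 11 of 15 hypoxia-induced genes (73.3%) and of 8 of 13 glycolytic genes (61.5%), against 2971 of 10608 genes compared (28.0%). GCGTG stood in 10 of 15 (66.7%) and 8 of 13 (61.5%), against 53.7%. Among all promoters of the same length, 19.6% held ACGTG and 32.4% GCGTG. Counted by promoter rather than by gene, ACGTG stood in 12 of 17 hypoxia-induced promoters (70.6%) and 9 of 21 glycolytic ones (42.9%), against 28.9% of the promoters of compared genes with at least 18 CG pairs. Against the same CG-rich promoters GCGTG showed no excess. It stood in 10 of 17 (58.8%) and 12 of 21 (57.1%), against 63.2%. The only windows listed for the hypoxia-induced gene Car12 and for the enzymes Tpi1 and Gpi1 held neither motif. A match describes the letters of the window and is not evidence of binding.

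The 16 skeletal muscle fiber genes, none of them glycolytic, summed to 2523 and 4302 TPM on gefitinib at days 3 and 14, against 335.1 on vehicle at day 3. At day 21 their sums were 19990, 94190 and 93730 TPM in the DC101, 4H2 and combination libraries, against 3546 in vehicle. The 3 antibody sums were 2.00%, 9.42% and 9.37% of all TPM, and none of the 16 was at 0 throughout. Myoglobin (Mb) was at 513.5, 3377 and 3272 TPM in these libraries, against 107.6 in vehicle at day 21, and troponin Tnnt3 at 1110, 5305 and 4641 against 185.3. The 13 epithelial genes, which mark the tumor lineage, summed to 52.0 TPM with 4H2 and 436.0 with the combination, against 8466 in the day 21 vehicle library, and Nkx2-1, the lung lineage factor (chosen after its values were seen), was at 1.1 and 14.0 against 238.3 TPM. Epcam was at 3.0 and 20.8 against 332.3 TPM and Egfr at 19.4 and 48.3 against 446.7, so that the markers of the labelled tissue were close to 0 with 4H2 and low with the combination. The 11 macrophage genes summed to 19420 and 20590 TPM at days 3 and 14 of gefitinib, against 2219 in vehicle at day 3. In bulk tissue, fewer cells of a type and less RNA per cell cannot be told apart.

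**Figure D1:**
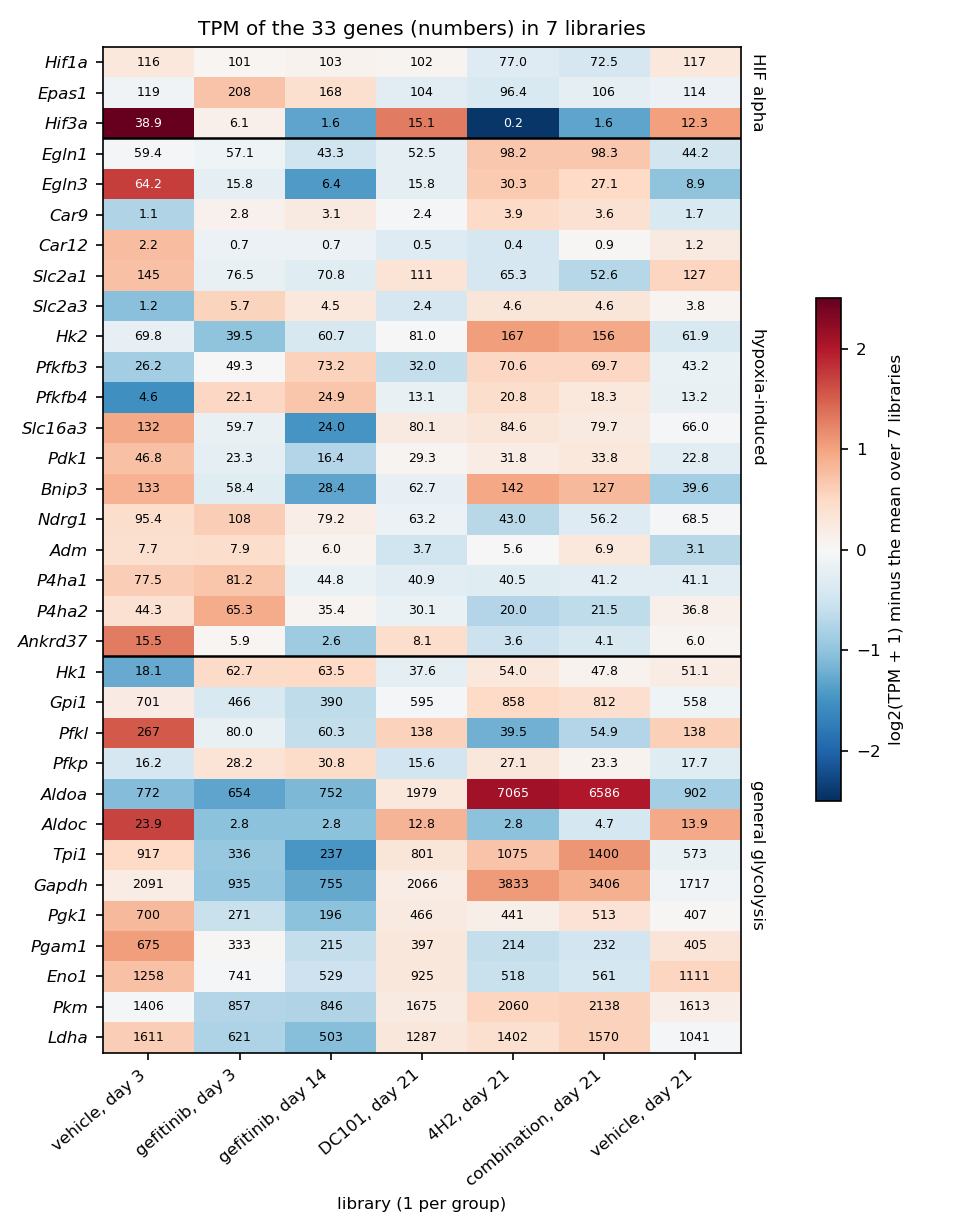
Each row is a gene and each column a library, grouped by role. Printed numbers are TPM and colors are log2(TPM + 1) minus the gene's mean over the 7 libraries. Aldoa stands at 7065 and 6586 TPM with 4H2 and the combination, while Hif3a, Egln3 and Aldoc have their highest value in the day 3 vehicle library.

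Of the 3 HIF alpha genes, 2 stayed within 2-fold in every comparison. Hif1a, the broadly expressed factor, was at 116.3 TPM on vehicle at day 3, at 100.9 and 102.8 on gefitinib at days 3 and 14, and at 102.3, 77.0, 72.5 and 117.4 TPM at day 21 with DC101, 4H2, the combination and vehicle. The lowest of these 7 values were in the libraries with most muscle RNA. Those libraries also had the lowest epithelial sums, at 52.0 and 436.0 TPM. Epas1, which encodes HIF-2 alpha and is prominent in endothelium and lung, was at 207.6 TPM at day 3 of gefitinib and 167.8 at day 14, against 119.1 in the day 3 vehicle library, and between 96.4 and 114.3 TPM at day 21. The 10 endothelial genes were at 623.2 and 546.0 TPM in those gefitinib libraries, against 238.9 in vehicle, and their part in the Epas1 level was not tested.

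Hif3a, whose protein can restrain the other HIF factors, varied more. It was at 38.9 TPM on vehicle at day 3, 6.1 and 1.6 on gefitinib at days 3 and 14, and 15.1, 0.2, 1.6 and 12.3 TPM at day 21 with DC101, 4H2, the combination and vehicle. Its 3 highest values were in the libraries with the 3 highest epithelial sums (4770, 5714 and 8466 TPM), and its log2 difference was -2.49 at day 3 and -3.94 at day 14 of gefitinib.

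Other regulators of the pathway lay closer together. Egln2, the most abundant prolyl hydroxylase RNA here, stayed between 150.8 and 178.8 TPM, and Arnt between 48.4 and 59.7. Among 9 such regulators, 2 were lower by at least 2-fold at day 3 of gefitinib, with none higher. These were Cited2, an inhibitor of HIF transactivation, at 154.1 against 318.8 TPM, and Kdm3a, a histone demethylase induced by HIF, at 27.2 against 63.0 TPM. Both were past 2-fold at day 14 as well, at 117.3 and 29.2 TPM, against the same vehicle library, and Arnt2 (named after its values were seen), at 1.6 against 0.1 TPM, was higher. The shares over all genes at day 14 were 12.7% lower and 22.7% higher. None of the 9 differed by 2-fold at day 21 with DC101 or 4H2. Hif1an, the asparagine hydroxylase that restrains HIF, was past 2-fold with the combination, at 69.3 against 33.1 TPM in vehicle. With 4H2 alone it was nearly as high, at 61.2 TPM, short of 2-fold. The shares of all genes were 3.12% higher and 1.11% lower with DC101, 10.9% and 20.0% with 4H2, and 11.7% and 17.0% with the combination.

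At day 3 of gefitinib, against vehicle at day 3, most glycolytic enzymes were lower while the hypoxia-induced genes split in both directions. Of the 13 enzymes, 7 were at least 2-fold lower and 1 higher, with a median log2 difference, log2((TPM + 1) / (TPM + 1)), of -1.02. Of the 16 hypoxia-induced genes compared, 4 were lower and 2 higher, with a median of -0.01, which was -0.43 among genes with a mean of at least 5 TPM. With Hif3a this made 12 of 32 genes at least 2-fold lower and 3 higher. Over all 13997 genes, 14.4% were lower and 20.8% higher by the same rule, and the median was -0.09. The 13 enzymes together summed to 5388 TPM at day 3 of gefitinib and 4581 at day 14, against 10457 in vehicle. The epithelial genes had a median log2 difference of -1.69 and -1.08 in the same pairs, and their part in the enzyme levels was not tested.

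At day 14 of gefitinib, against the same vehicle library, 8 of 13 enzymes were at least 2-fold lower and 1 higher, with a median of -1.47. Of the hypoxia-induced genes, 6 of 16 were lower and 3 higher, with a median of -0.38. In all, 15 of the 32 genes were lower and 4 higher, against 12.7% and 22.7% of all genes, whose median was 0.03. Vehicle at day 14 was not analysed here, so gefitinib and the added days in the animal cannot be told apart.

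The enzymes that were lower span the early and the late steps of glycolysis. Pfkl, the liver-type phosphofructokinase that commits sugar to glycolysis, was at 80.0 and 60.3 TPM at days 3 and 14 of gefitinib, against 267.3 in vehicle. Tpi1, which interconverts the triose phosphates, was at 335.9 and 237.0 against 917.0 TPM. Pgk1, which makes the first ATP of the pathway, was at 270.8 and 196.2 against 700.2 TPM. The day 14 value was the lower of each pair.

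Gapdh, the triose dehydrogenase often used as a reference gene, was at 935.0 and 755.1 TPM at days 3 and 14 of gefitinib, against 2091 in vehicle. Ldha, which reduces pyruvate to lactate, was at 621.4 and 503.3 against 1611 TPM. Pgam1, the non-muscle phosphoglycerate mutase, was at 332.9 and 214.6 against 675.4 TPM, and Eno1, the general enolase, at 741.3 and 529.2 against 1258 TPM, the last past 2-fold at day 14. Aldoc, the brain-type aldolase, was at 2.8 TPM at both times against 23.9 in vehicle, the lowest log2 difference of the 13 enzymes at -2.71.

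Aldoa, the main aldolase of muscle and most other tissues, did not follow them. It was at 653.9 TPM at day 3 and 751.9 at day 14 of gefitinib, against 771.8 in vehicle, a log2 difference of -0.24 and -0.04. The muscle genes were higher in the gefitinib libraries, 16 of 16 at least 2-fold at each time, and their part in the Aldoa level was not tested. Its share of the summed TPM of the 13 enzymes was 12.1% and 16.4% in the gefitinib libraries, against 7.38% in vehicle. Pkm, pyruvate kinase of muscle and tumor cells, was at 857.2 and 846.5 against 1406 TPM, and Gpi1, the glucose phosphate isomerase, at 466.2 and 389.5 against 701.1 TPM, both short of 2-fold.

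The enzyme that was at least 2-fold higher under gefitinib was Hk1, the hexokinase held at mitochondria. It was at 62.7 and 63.5 TPM at days 3 and 14, against 18.1 in vehicle, a log2 difference of 1.74 and 1.76. Pfkp, the platelet-type phosphofructokinase, was at 28.2 and 30.8 against 16.2 TPM, short of 2-fold. Among the paralogs not in the gene set, Hk3, a hexokinase of myeloid cells, was at 75.2 and 126.0 against 6.0 TPM, and Slc2a6, a glucose transporter of inflammatory macrophages, at 19.1 and 18.7 against 3.5 TPM. The macrophage genes were higher in the same libraries, 10 of 11 at least 2-fold at each time, and their part in these levels was not tested. The reverse held for Hkdc1, a further hexokinase-like gene, at 1.0 TPM at both times against 14.3, and for the lactate and pyruvate transporter gene Slc16a1, at 27.9 and 20.8 against 102.4 TPM. The epithelial genes were lower beside them, 11 of 13 at least 2-fold at day 3 and 7 of 13 at day 14.

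The makeup of the hexokinase step differed with it. Hk2, the inducible hexokinase, held 22.1% and 24.1% of hexokinase TPM at days 3 and 14 of gefitinib, against 64.3% in vehicle. Hk3 held 42.1% and 50.1% against 5.52%, while the step's summed TPM was 178.8 and 251.4 against 108.6. Hk2 itself was at 39.5 and 60.7 against 69.8 TPM.

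**Figure D2:**
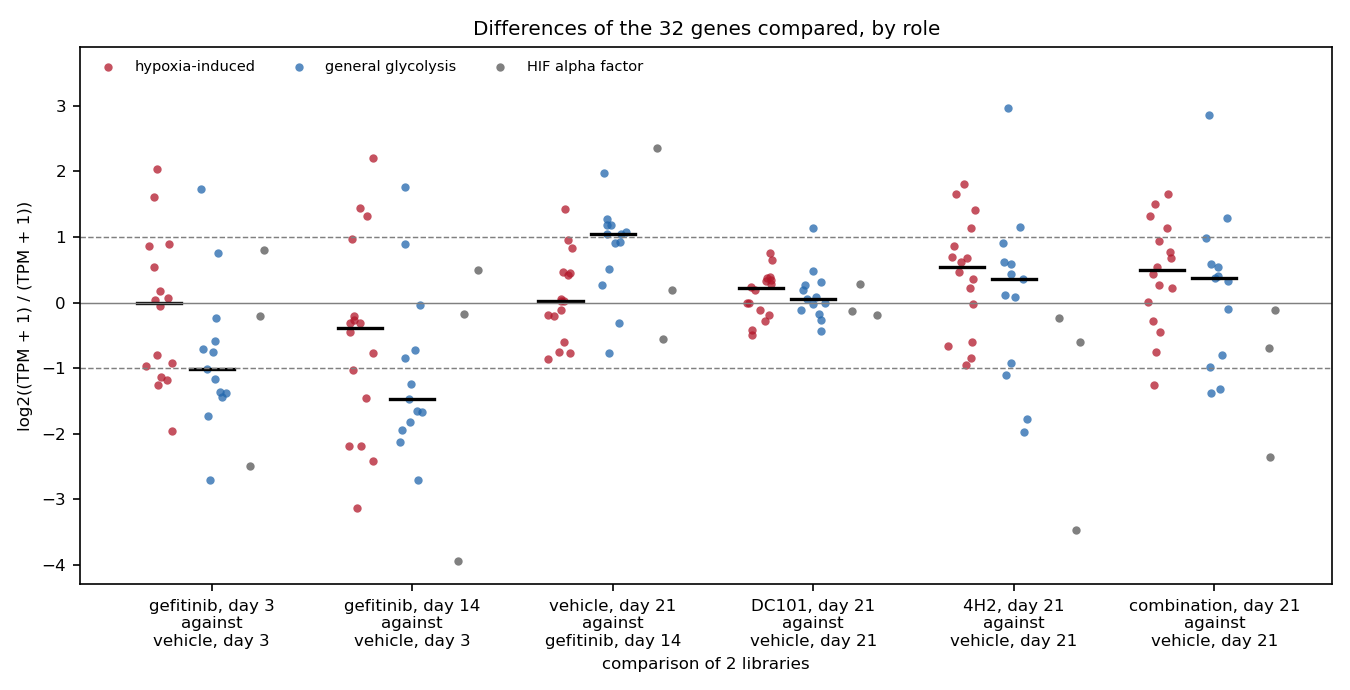
Each point is 1 gene in 1 comparison of 2 libraries, on the scale log2((TPM + 1) / (TPM + 1)), colored by role. Black bars are medians of the hypoxia-induced and glycolytic groups and dashed lines mark 2-fold. The glycolytic median is -1.02 and -1.47 in the gefitinib comparisons and 1.05 after gefitinib, whereas the hypoxia-induced medians there are -0.01, -0.38 and 0.03.

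Among the hypoxia-induced genes, a set of 4 was lower at both times of gefitinib. Egln3, the prolyl hydroxylase most strongly induced by HIF, was at 15.8 and 6.4 TPM at days 3 and 14, against 64.2 in vehicle. Bnip3, a mitophagy receptor, was at 58.4 and 28.4 against 133.1 TPM. Ankrd37, an ankyrin-repeat gene used as a hypoxia marker, was at 5.9 and 2.6 against 15.5 TPM. Slc16a3, the lactate exporter MCT4, was at 59.7 and 24.0 against 132.0 TPM. All 4 were at least 2-fold lower at each time, with a log2 difference at day 14 between -3.14 for Egln3 and -2.19 for Bnip3.

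Slc2a1, the glucose transporter GLUT1, and Pdk1, which keeps pyruvate out of mitochondria, were lower by less. Slc2a1 was at 76.5 and 70.8 against 145.3 TPM, and Pdk1 at 23.3 and 16.4 against 46.8 TPM, each past 2-fold at day 14.

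Another set was higher. Pfkfb4 and Pfkfb3 make fructose 2,6-bisphosphate, the activator of phosphofructokinase. Pfkfb4 was at 22.1 and 24.9 TPM at days 3 and 14 of gefitinib, against 4.6 in vehicle, and Pfkfb3 at 49.3 and 73.2 against 26.2 TPM, past 2-fold at day 14. Slc2a3, the high-affinity transporter GLUT3 of leukocytes and neurons, was at 5.7 and 4.5 against 1.2 TPM. These 3 genes had their lowest value of all 7 libraries in the day 3 vehicle library.

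The remaining genes of the class did not reach 2-fold on the (TPM + 1) scale. Egln1, the main oxygen-sensing hydroxylase, was at 57.1 and 43.3 against 59.4 TPM. Ndrg1, a stress-response gene, was at 108.0 and 79.2 against 95.4 TPM. Adm, which encodes the vasodilator adrenomedullin, was at 7.9 and 6.0 against 7.7 TPM. P4ha1 and P4ha2, the collagen prolyl hydroxylases, were at 81.2 and 65.3 TPM at day 3, against 77.5 and 44.3 in vehicle. At day 14 they were below vehicle, at 44.8 and 35.4 TPM. The 9 fibroblast genes summed to 23400 and 12200 TPM at days 3 and 14, against 2318 in vehicle, and their part in these levels was not tested. Car9, the carbonic anhydrase widely used to stain hypoxic tumor cells, stayed between 1.1 and 3.9 TPM in all 7 libraries, and Car12 between 0.4 and 2.2.

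Of a further 32 known hypoxia targets at day 3 of gefitinib, 5 were at least 2-fold lower and 7 higher, with a median of -0.23. These counts lie near the shares over all genes, 14.4% lower and 20.8% higher. Lower were Stc2, a secreted glycoprotein gene, at 4.9 against 63.4 TPM, and Mif, a cytokine gene, at 617.4 against 2213. Ddit4, an mTORC1 inhibitor, was at 81.9 against 243.5 TPM. Angptl4, a lipoprotein lipase inhibitor, was higher at 99.3 against 18.6 TPM. At day 14, 8 of the 32 were lower and 5 higher, against 12.7% and 22.7% of all genes. Loxl2, a collagen crosslinking enzyme, was at 87.7 against 15.8 TPM and Cxcr4, a chemokine receptor of leukocytes, at 121.7 against 31.4. Vegfa was at 53.3 and 75.3 TPM at days 3 and 14, against 74.2 in vehicle.

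In the day 21 vehicle library, 7 days after gefitinib, the enzymes were higher than at day 14 of gefitinib, and the hypoxia-induced genes as a group were not. Of 13 enzymes, 7 were at least 2-fold higher and none lower, with a median of 1.05. Of 16 hypoxia-induced genes, 1 was higher and none lower, with a median of 0.03. In all, 9 of 32 genes were higher and none lower, against 7.62% and 7.89% of all genes, whose median was -0.01. The day 14 library is shared with the previous comparison, on the other side of the difference, and the end of gefitinib and the 7 further days cannot be told apart.

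Tpi1 stood at 572.9 TPM on vehicle at day 21, against 237.0 at day 14 of gefitinib, Gapdh at 1717 against 755.1, Pgk1 at 406.6 against 196.2 and Ldha at 1041 against 503.3. Eno1 was at 1111 against 529.2 TPM, Pfkl at 138.2 against 60.3 and Aldoc at 13.9 against 2.8. These 7 enzymes were among those lower at day 14. Slc16a3 was the hypoxia-induced gene past 2-fold, at 66.0 against 24.0 TPM, and Hif3a was at 12.3 against 1.6. Egln3, at 8.9 against 6.4 TPM, and Bnip3, at 39.6 against 28.4, were not. The epithelial genes were higher in the same pair, 11 of 13 at least 2-fold, and their part in the enzyme levels was not tested.

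Set against vehicle at day 3, the day 21 vehicle library gave the 2 classes nearly equal medians. None of the 13 enzymes was at least 2-fold lower and 1, Hk1, was higher, at 51.1 against 18.1 TPM, with a median of -0.33. Of 16 hypoxia-induced genes, 5 were lower and 2 higher, with a median of -0.45. With Hif3a, 6 of 32 genes were lower and 3 higher, against 3.11% and 15.3% of all genes, whose median was 0.04. With a pseudocount of 5 TPM these counts were 3 lower and 1 higher, since several of the genes have low levels.

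The 5 lower genes were Egln3 at 8.9 against 64.2 TPM, Bnip3 at 39.6 against 133.1, Ankrd37 at 6.0 against 15.5, Pdk1 at 22.8 against 46.8 and Adm at 3.1 against 7.7. Slc2a1, at 127.0 against 145.3 TPM, and Pkm, at 1613 against 1406, lay close to the day 3 vehicle level. The higher genes were Pfkfb4 at 13.2 against 4.6 TPM and Slc2a3 at 3.8 against 1.2. Other lists differed in the same pair: of the muscle genes 16 of 16, of the macrophage genes 9 of 11 and of the fibroblast genes 8 of 9 were at least 2-fold higher. Of the 13 epithelial genes 5 were higher and none lower, with a median of 0.11, but Epcam was at 332.3 against 571.2 TPM and Nkx2-1 at 238.3 against 391.6. The part of these cell types in the 5 lower genes was not tested.

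After 7 days of DC101, the hypoxia-induced genes lay close to vehicle at day 21. None of the 16 differed by 2-fold in either direction, and their median was 0.22, with 9 above and 7 below 0. Of the 13 enzymes, 1 was at least 2-fold higher and none lower, with a median of 0.05. The counts over all genes were 3.12% higher and 1.11% lower, with a median of -0.05.

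The higher enzyme was Aldoa, at 1979 TPM with DC101 against 902.4 in vehicle. Among the hypoxia-induced genes the largest differences were in Egln3, at 15.8 against 8.9 TPM, and Bnip3, at 62.7 against 39.6, with a log2 difference of 0.76 and 0.65. Ankrd37 was at 8.1 against 6.0 TPM, Pdk1 at 29.3 against 22.8, Adm at 3.7 against 3.1 and Slc2a1 at 111.3 against 127.0. Vegfa was at 52.4 against 66.5 TPM. Of 32 further hypoxia targets, 2 were higher and 1 lower, and of 16 paralogs compared 3 were higher and none lower. The muscle genes were higher in the same library, 16 of 16 at least 2-fold, with Acta1, skeletal actin, at 5309 against 1201 TPM and Ckm, muscle creatine kinase, at 2416 against 344.9. Their part in the Aldoa level was not tested.

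With 4H2, against vehicle at day 21, the enzymes split in both directions. Of 16 hypoxia-induced genes, 4 were at least 2-fold higher and none lower, with a median of 0.54. Of 13 enzymes, 2 were higher and 3 lower, with a median of 0.35. In all, 6 of 32 genes were higher and 4 lower, against 10.9% and 20.0% of all genes, whose median was -0.21. Leaving out the 8 genes known to be abundant in skeletal muscle (Hk2, Gpi1, Aldoa, Tpi1, Gapdh, Pgk1, Pkm and Ldha) turned the glycolytic median to -1.01. All 8 lay above vehicle in this pair, so the lower median describes only the enzymes kept. Those were Hk1, Pfkl, Pfkp, Aldoc, Pgam1 and Eno1.

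The combination gave a like picture against the same vehicle library, which is shared by all 3 antibody comparisons. Of the hypoxia-induced genes, 4 were higher and 1 lower (median 0.50), and of the enzymes 2 were higher and 2 lower (median 0.38, or -0.89 without the muscle-abundant genes). The muscle-abundant genes again all lay above vehicle. In all, 6 of 32 genes were higher and 4 lower, against 11.7% and 17.0% of all genes, whose median was -0.17.

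The genes higher in these libraries included the muscle aldolase. Aldoa was at 7065 TPM with 4H2 and 6586 with the combination, against 902.4 in vehicle, and held 40.2% and 38.0% of the summed TPM of the 13 enzymes, against 10.6%. Gapdh was at 3833 and 3406 against 1717 TPM, past 2-fold with 4H2, and Tpi1 at 1075 and 1400 against 572.9, past 2-fold with the combination. Ldha was at 1402 and 1570 against 1041 TPM, Pkm at 2060 and 2139 against 1613, Gpi1 at 858.3 and 812.1 against 558.1, and Pgk1 at 441.0 and 513.2 against 406.6, all short of 2-fold. Without Aldoa, the other 12 enzymes summed to 10525 and 10764 TPM against 7645.

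Of the hypoxia-induced genes, 4 were at least 2-fold higher with 4H2 and with the combination. Bnip3 was at 141.7 and 127.4 TPM, against 39.6 in vehicle. Hk2, also the main hexokinase of muscle, was at 167.2 and 156.3 against 61.9 TPM. Egln3 was at 30.3 and 27.1 against 8.9 TPM, and Egln1 at 98.2 and 98.3 against 44.2. Hk2 and Egln1 had their 2 highest values of the 7 libraries here. Bnip3 was also high on vehicle at day 3, at 133.1 TPM. All 16 muscle genes were at least 2-fold higher in both libraries, and their part in these levels was not tested.

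The other genes of the class did not reach 2-fold higher on the (TPM + 1) scale. Car9, at 3.9 and 3.6 against 1.7 TPM, and Adm, at 5.6 and 6.9 against 3.1, are low enough for the added 1 TPM to matter. Slc2a1 was at 65.3 and 52.6 TPM with 4H2 and the combination, against 127.0 in vehicle, past 2-fold with the combination. Ankrd37 was at 3.6 and 4.1 against 6.0 TPM, Ndrg1 at 43.0 and 56.2 against 68.5 and P4ha2 at 20.0 and 21.5 against 36.8. Pfkfb3 was at 70.6 and 69.7 against 43.2 TPM, short of 2-fold, and Slc16a3 at 84.6 and 79.7 against 66.0. Vegfa was at 54.0 and 45.7 against 66.5 TPM. Of the 32 further hypoxia targets, 7 were higher and 6 lower with 4H2, and 6 were higher and 9 lower with the combination. Over all genes, 10.9% were higher and 20.0% lower with 4H2, and 11.7% and 17.0% with the combination. P4ha1 was at 40.5 and 41.2 against 41.1 TPM. Of the 16 genes compared, 11 lay above and 5 below day 21 vehicle with 4H2, and 12 and 4 with the combination. Among them, Bnip3 and Egln3 lay above it where Ankrd37 and Slc2a1 lay below it, with Ankrd37 short of 2-fold in both libraries. At day 14 of gefitinib all 4 had been lower together, against another reference, vehicle at day 3.

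Several enzymes for which muscle has its own isozyme were lower. Pfkl was at 39.5 and 54.9 TPM with 4H2 and the combination, against 138.2 in vehicle. Eno1 was at 518.0 and 561.4 against 1111 TPM, past 2-fold with 4H2, and Pgam1 at 214.4 and 232.3 against 405.2, short of it. Aldoc was at 2.8 and 4.7 against 13.9 TPM. Among the paralogs, Hkdc1 was at 0.2 and 1.2 against 23.3 TPM and Slc16a1 at 16.9 and 21.2 against 59.7. The epithelial genes were lower in the same pairs, 13 of 13 at least 2-fold in each, with a median of -6.51 and -4.00. Their part in these levels was not tested.

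The muscle isozymes stood on the other side. Of 9 muscle genes of glycolysis and glycogen use, 9 were at least 2-fold higher with 4H2 and with the combination and 6 with DC101. Pygm, muscle glycogen phosphorylase, was at 2606 and 2511 TPM with 4H2 and the combination, against 92.3 in vehicle. Slc2a4, the insulin-dependent transporter GLUT4, was at 132.4 and 142.3 against 4.9 TPM. Fat also expresses GLUT4, and the 6 adipocyte genes summed to 617.5 and 634.4 TPM, against 108.7 in vehicle, with 6 of 6 at least 2-fold higher in each library. Their part in the Slc2a4 level was not tested. Eno3, the muscle enolase, was at 1210 and 1413 against 55.4 TPM, and Pgam2, the muscle mutase, at 1877 and 1634 against 95.8.

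Isozyme shares put these differences within 1 step of the pathway. Pgam2 held 89.7% and 87.5% of phosphoglycerate mutase TPM with 4H2 and the combination, and 49.2% with DC101, against 19.1% in vehicle. Eno3 held 69.8%, 71.4% and 22.6% of enolase TPM for 4H2, the combination and DC101, against 4.74%. Pfkm, the muscle phosphofructokinase, held 94.1%, 93.9% and 59.4% against 30.6%. Slc2a4 held 59.4%, 67.3% and 16.6% of the glucose transporter TPM against 3.41%. On vehicle at day 3 the general isozymes held 95.5% (Pgam1), 99.3% (Eno1), 84.1% (Pfkl) and 96.5% (Slc2a1).

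**Figure D3:**
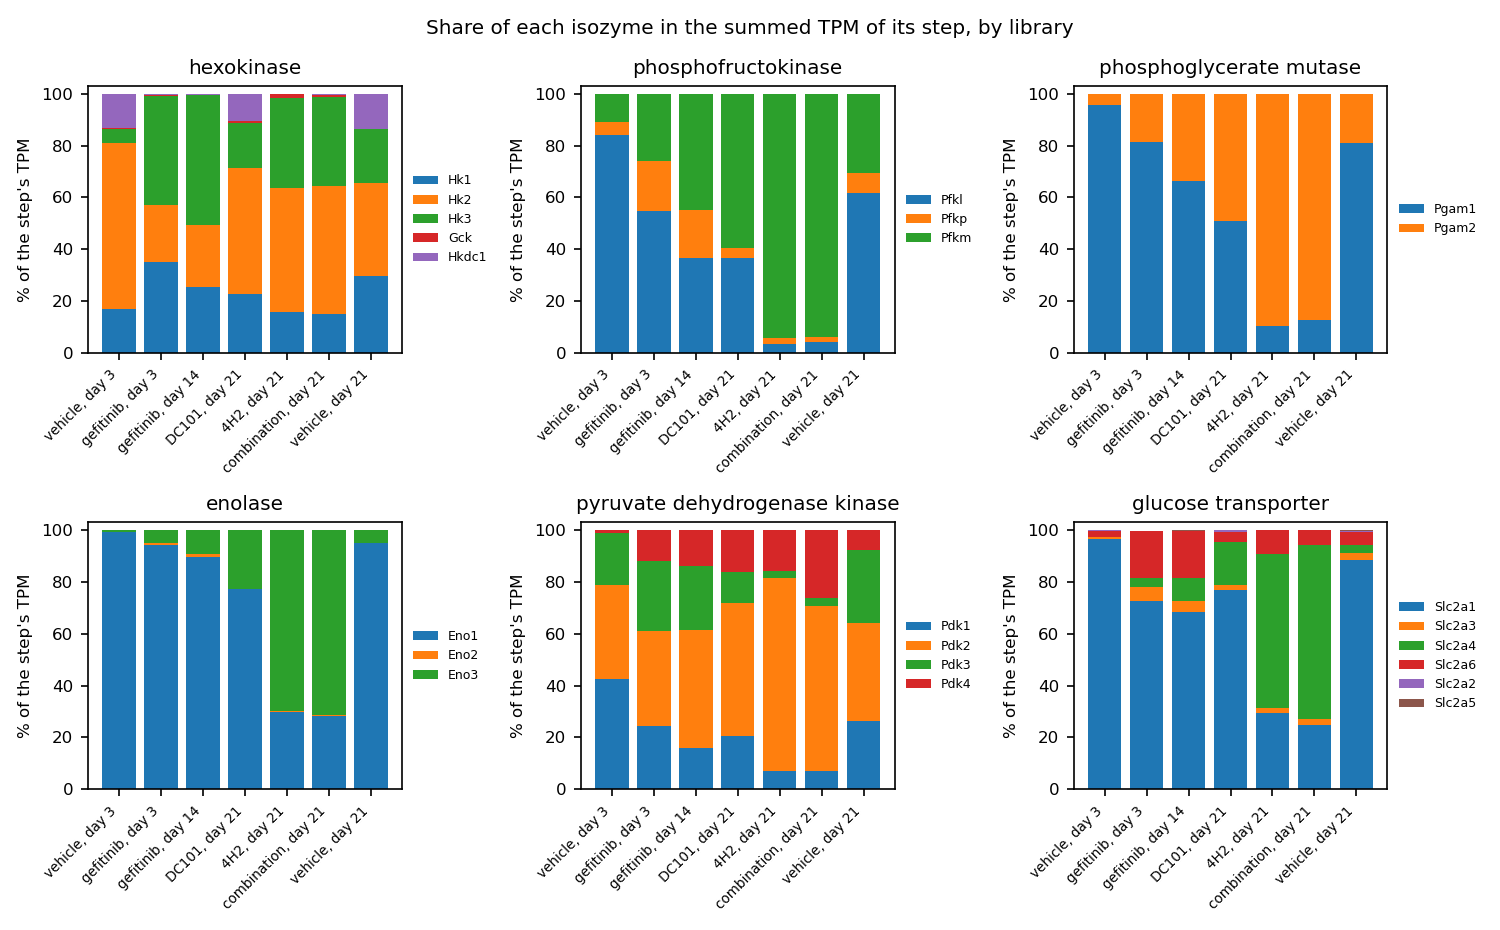
Each bar is 1 library and shows what percentage of the summed TPM of a step each isozyme holds. The muscle isozymes Pgam2, Eno3, Pfkm and Slc2a4 hold 59.4% or more with 4H2 and the combination, and Hk3 holds 42.1% and 50.1% of hexokinase TPM under gefitinib.

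The pyruvate dehydrogenase kinases differed too. Pdk2 was at 339.8 and 298.7 TPM with 4H2 and the combination, against 33.1 in vehicle, and Pdk4, the fasting-induced kinase, at 72.3 and 123.0 against 6.7. Pdk1, the HIF-induced member, was at 31.8 and 33.8 against 22.8 TPM, and its share of the step was 6.98% and 7.19% against 26.2%. Ldhb, the heart-type lactate dehydrogenase, was at 245.5 and 270.9 against 22.6 TPM.

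A ratio chosen after the values were seen puts each gene beside the muscle genes. For DC101, 4H2 and the combination, the TPM of a gene above the day 21 vehicle library was divided by the TPM of the 16 muscle genes above it. The 3 ratios share that vehicle library. Aldoa gained 65.4, 68.0 and 63.0 TPM per 1000 TPM of muscle genes in the DC101, 4H2 and combination libraries. For Hk2 the gain was 1.16, 1.16 and 1.05, for Egln1 0.505, 0.596 and 0.600, for Bnip3 1.40, 1.13 and 0.974, for Gapdh 21.2, 23.3 and 18.7, and for Gpi1 2.24, 3.31 and 2.82. The muscle sum above vehicle was 16446, 90648 and 90182 TPM. Of the 32 genes, 15 lay above vehicle in all 3 libraries, as did 2881 of all 13997 genes compared. The 6 genes just named were the ones of the 15 whose gain per muscle TPM stayed within 1.5-fold. They made up 18.8% of the 32, against 4.87% of all genes compared (682 of them). Part of that gap is the larger share of the 32 that lay above vehicle in all 3 libraries. Among genes above vehicle in all 3, the counts were 6 of 15, against 682 of 2881. The muscle sums above vehicle were nearly equal with 4H2 and the combination, so the ratios of these libraries are close to a repeat of each other.

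The other genes that lay above vehicle in all 3 libraries did not keep their ratio within 1.5-fold, and they include 4 of the 8 muscle-abundant genes. Ldha gained 15.0 TPM per 1000 with DC101, against 3.99 and 5.87 with 4H2 and the combination. Tpi1 gained 13.9 against 5.54 and 9.17, Pgk1 3.64 against 0.379 and 1.18, and Pkm 3.79 against 4.93 and 5.83. Slc16a3 gained 0.857 against 0.205 and 0.152, and Pdk1 0.395 against 0.0993 and 0.122. Egln3 gained 0.420 with DC101, against 0.236 and 0.202 for 4H2 and the combination.

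Muscle genes of glycolysis and glycogen use, set beside them, were also divided. Of 9, 7 stayed within 1.5-fold, among them Pygm at 26.7, 27.7 and 26.8. Fbp2, the muscle fructose bisphosphatase, gained 0.991, 0.441 and 0.363, and Ppp1r3a, a glycogen-targeting phosphatase subunit, 0.942, 0.510 and 0.599. Neither gene followed the muscle sum in the other libraries. Ppp1r3a was at 28.4 TPM on vehicle at day 3, against 14.1 and 16.1 on gefitinib, where the muscle sum was higher. Fbp2 was at 21.4 TPM on vehicle at day 21, against 3.7 at day 14 of gefitinib, where the muscle sum was also higher. The source of their RNA was not tested. No muscle library was used here, so what muscle alone would give for each gene was not measured.

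**Figure D4:**
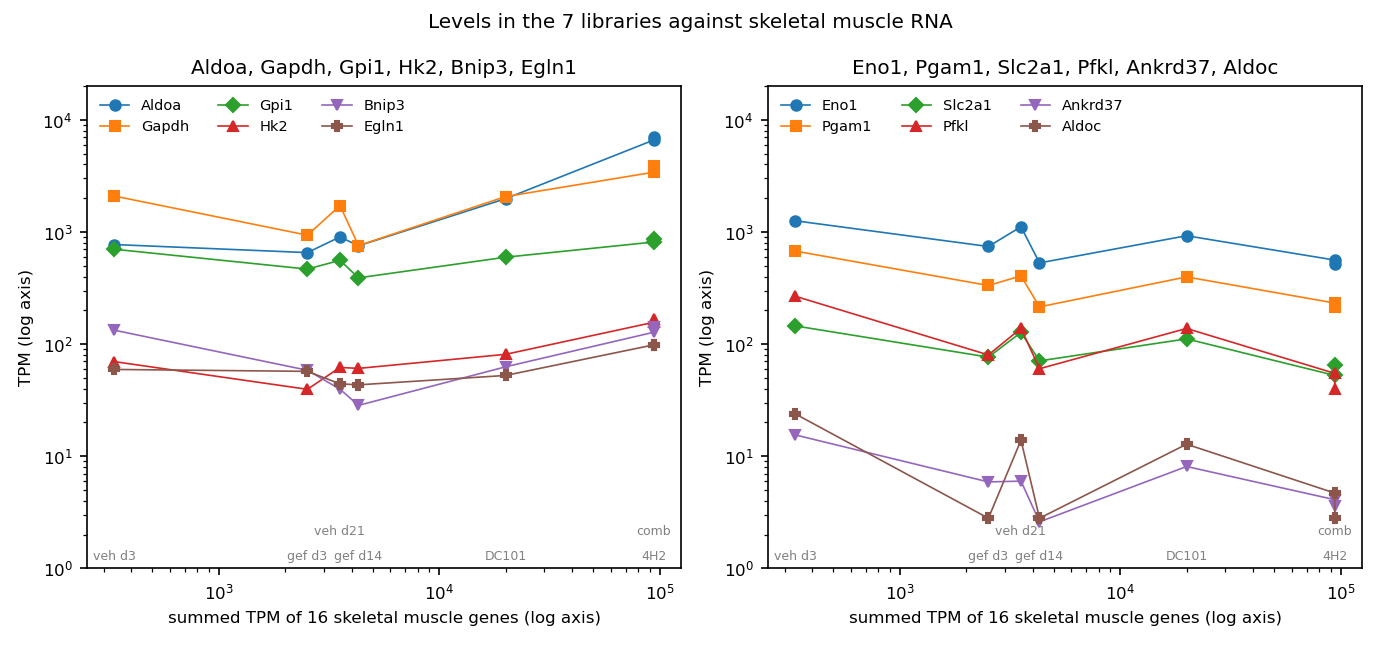
Each point is a library, with the summed TPM of 16 muscle genes on the x axis and the TPM of a gene on the y axis, both log axes, and lines join libraries in order of muscle RNA. The 12 genes were chosen after their values were seen. Aldoa lies between 653.9 and 902.4 TPM in the 4 libraries with 4302 TPM of muscle genes or less and at 1979, 7065 and 6586 TPM in the 3 above.

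The combination and 4H2 libraries hold nearly the same muscle RNA and give the closest setting for the addition of DC101. Against 4H2 alone, none of the 13 enzymes or 16 hypoxia-induced genes differed by 2-fold, with a median of 0.12 and -0.01. Hif3a, at 1.6 against 0.2 TPM, was the 1 gene of 32 that was higher, against 4.94% of all genes higher and 0.464% lower, with a median of 0.06. Tpi1 was at 1400 against 1075 TPM, Aldoc at 4.7 against 2.8, Slc2a1 at 52.6 against 65.3 and Bnip3 at 127.4 against 141.7. The epithelial genes were higher in this pair, 12 of 13 at least 2-fold.

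Over all 7 libraries, 12 of the 32 genes had their highest value in the day 3 vehicle library and 12 their lowest at day 14 of gefitinib. Among all genes compared the shares were 31.7% and 6.17%. Of the 13 enzymes, 6 were highest in the day 3 vehicle library and 5 with 4H2 or the combination. Of all genes, 10.4% were highest with 4H2 and 12.4% with the combination. DC101 held the highest value of none of the 32 genes, against 3.47% of all genes.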

How the data were processed

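RNA was extracted from frozen tissue, depleted of ribosomal RNA and made into directional libraries, per the labels' protocols. The deposited values are TPM, normalized by the authors to 1000000 per library and rounded to 1 decimal, with 0.1 as the smallest value above 0. Per the submitters' processing notes, reads were placed on GRCm38.p6. Aligner, counter, annotation and any use of strand in counting were not given in the sources used here. Depth cannot be recovered from TPM.

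Groups follow the sample titles. Differences are log2((TPM + 1) / (TPM + 1)) over 13997 genes (mean of 1 TPM or more), called at 2-fold. With 1 library per group no test was made in the 8 comparisons. The members, lists and comparisons were chosen with earlier results of these data known. All members are named. Genes of other lists were named by size of difference, up to 4 in the direction of the list median and 2 against it at 10 TPM or more, with Acta1, Ckm, Mb, Tnnt3, Epcam, Vegfa and Egfr as gauges. Nkx2-1 and the ranges and shares of further isozymes were chosen after their values were seen. Alternatives were other pseudocounts, filters and scalings, lists without muscle-abundant genes, and means. The calling step was tested on simulated data.

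Promoters come from RefSeq for GRCm38.p6 and were matched by symbol. The 5 listed copies of glycolytic genes (Aldoart1, Aldoart2, Eno1b, Gapdh-ps15 and Pgk2) were at 3.6 TPM or less, but how shared reads were handled is not given, so Gapdh, Aldoa, Eno1, Pgk1, Tpi1, Ldha, Pkm and Pgam1 carry that uncertainty. Protein sequences were not used here. Python 3.11.15, numpy 2.4.6, pandas 2.3.3 and matplotlib 3.10.9 were used.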

Additional observations from a re-analysis of the deposited data

How the results depend on the processing

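No paired analysis was possible because each group has 1 library. The 32 counts and medians were recomputed under the alternatives, giving 240 values, of which 227 stayed within 1.5-fold of a count or 0.25 of a median, and 13 moved further. Leaving out a replicate was not possible with 1 library each. Without the muscle-abundant genes, the glycolytic median was -1.01 with 4H2 and -0.89 with the combination. The genes left out all lay above day 21 vehicle in both libraries, so these medians describe only the enzymes kept. The genes at least 2-fold higher then numbered 5 after gefitinib, 0 with DC101, and 3 each for 4H2 and the combination. Median-of-ratios scaling put the glycolytic median with 4H2 at 0.61 and shifted single genes by a median of 0.24 with 4H2, 0.23 with the combination and 0.11 at day 3 of gefitinib, where Egln1 and the hypoxia-induced median (0.10) changed sign. It turned the sign of no gene called at 2-fold. A mean of at least 5 TPM put the hypoxia-induced median at day 3 of gefitinib at -0.43. Means in place of medians gave -1.05 for the enzymes at day 14 of gefitinib and 0.79 after gefitinib. With a pseudocount of 5 TPM, the day 21 vehicle library had 1 gene higher and 3 lower than day 3 vehicle, and the combination had 0 higher than 4H2, so that the call on Hif3a rests on its low level. The hypoxia-induced median after gefitinib (0.03) and the glycolytic median with DC101 (0.05) lie near 0 and take either sign. Depth is unknown, and genes of a few TPM such as Car9, Car12 and Slc2a3 are the least certain.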

Other observations

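The 2 monocarboxylate transporter genes, which move lactate and pyruvate across the cell membrane, differed in share. Slc16a3 and Slc16a1 together summed to 87.6 TPM at day 3 and 44.8 at day 14 of gefitinib, against 234.4 TPM on vehicle at day 3, and the day 14 sum was the lowest of the 7. At day 21 the sums were 155.3, 101.5 and 100.9 TPM in the DC101, 4H2 and combination libraries, against 125.7 in vehicle. Slc16a3 held 83.3% and 79.0% of the sum with 4H2 and the combination, against 52.5% in vehicle.

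Genes of glycogen synthesis, picked after their values were seen, were high in the libraries with most muscle RNA. Gys1, muscle glycogen synthase, was at 311.8 TPM with 4H2 and 316.1 with the combination, against 80.8 in vehicle at day 21. Gbe1, the branching enzyme, was at 43.3 and 41.1 against 15.0 TPM. Both are also known hypoxia targets. Tigar, a bisphosphatase that opposes the PFKFB kinases, was at 43.8 and 40.6 against 12.3 TPM.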
